A study of Mus musculus with 6 samples.

Results

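COPI and COPII vesicle trafficking genes encode the coats, coat-recruiting GTPases, cargo receptors and retrieval receptors that move proteins between the endoplasmic reticulum (ER) and the Golgi. The list held 40 genes, and members were the probe sets, groups of short probes for 1 transcript, that the platform annotation gave 1 of these symbols and no other. There were 37 such genes with 68 probe sets, of 12393 named genes in the series, and each gene was represented by its brightest probe set over the 6 arrays. Sec24a, Tmed1 and Tmed2 were not analysed here. The cells were mouse multiple myeloma cells, a plasma cell malignancy, with bone marrow given as their source. They were kept for 12 h in serum-free medium with 100 ng/ml IGF-1 (insulin-like growth factor 1, a survival and growth factor for myeloma) or in that medium with no IGF-1 (control). Each condition was measured on 3 arrays. Neither the mouse strain, a cell line name nor the source of the replicates is given in the labels, so a p-value reflects only how these 6 samples vary, possibly a technical spread.

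In COPII transport, the GTPase Sar1 bends the ER membrane and recruits an inner coat of Sec23 and Sec24, which binds cargo, and then an outer coat of Sec13 and Sec31. In COPI transport, ARF GTPases recruit coatomer to Golgi membranes, and the vesicles return escaped ER proteins and cycling receptors. Plasma cells secrete antibody in bulk and depend on this traffic, and KDEL receptors bring back the chaperones that fold the antibody chains.

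The labelled cell type was checked against its markers. The brightest plasma cell markers were Jchain, the joining chain of polymeric antibodies, at a mean signal of 4311 with IGF-1 and 4443 in control, and Pou2af1, a B lineage coactivator, at 1339.5 and 1382. Of 7 tested plasma cell markers 0 rose and 2 fell, Slamf7 by 0.62 and Tnfrsf17 by 0.51 on the log2 scale (0 and 0 under the scaling to hybridization controls described further on). The summed signal of the 8 plasma cell markers with a probe set was 7393 to 7933 in IGF-1 arrays and 7854 to 8553 in control arrays. Neutrophil and macrophage transcripts also gave strong signal. S100a9 (means of 6386 with IGF-1 and 7358 in control) and Ngp (5321 and 6089) were brighter than Jchain. Signals of unlike probe sets do not give shares of cells. The summed signal of 10 neutrophil markers, led by S100a9 and Ngp, was 23540 to 26150 in IGF-1 arrays and 25400 to 30330 in control arrays. Of these 10 markers 0 rose and 2 fell, Ltf and Cd177, with log2 differences of -0.60 and -0.57 (0 and 0 under that scaling, 0 and 4 with quantile normalization, S100a9 and Ngp being added). The sum of 11 macrophage markers, led by Lyz2 and Ctss, was 7266 to 8868 with IGF-1 and 7956 to 9734 in control. Of the 9 tested, Cd68 rose and 3 fell, the most Csf1r (-1.02), then Cd14 (-0.82) and Itgam (-0.54), with 1 and 2 under that scaling and 1 and 1 with quantile normalization. The other tested probe sets of Csf1r, at -0.43 and 0.15, did not pass. Summed signals of T cell, stromal and erythroid markers were at most 217.5 with IGF-1 and 249 in control, and 0 markers of any list were at a signal of 0. In such bulk samples fewer cells of a type and less RNA per cell cannot be told apart, and the part of these myeloid cells in the results below was not tested. Array pairs of the same group correlated at 0.978 to 0.984, and pairs of an IGF-1 and a control array at 0.956 to 0.965.

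Of the 37 genes, 7 were higher with IGF-1, 1 was lower and 29 did not pass the test. Those higher were Sec23a and Sec13 of the COPII coat, Copg1 of the COPI coat, the cargo receptors Lman1 and Surf4, and the KDEL receptors Kdelr1 and Kdelr2. The gene that was lower was Tmed3, a p24 cargo adaptor. Changes were modest, with called log2 differences of 0.34 to 0.55 upward and -0.47 downward, and 27 of the 37 genes lay within 0.25 of 0. Values were compared as log2(signal + 15.57) by limma's moderated test, adjusted by Benjamini-Hochberg over all 11313 probe sets tested, with 0.05 as the threshold.

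The background for these counts was 7.05% of 6895 tested genes called higher and 8.05% called lower. The 7 members called higher were 18.9% of the 37. Members were bright, with mean signals from 80.3 for Copz2 to 1831 for Arf1, and all 37 passed the filter on dim probe sets. Among genes above the 70th percentile of signal, where 34 members remained, 7 members were called higher and 0 lower, against a background of 10.4% higher and 10.3% lower. The median log2 difference of the 37 was 0.14, beside -0.01 over all tested genes, and 24 of them (64.9%) were above 0, beside 48.7% of all genes. In 13 members the 3 IGF-1 arrays lay above the 3 control arrays without overlap (17.1% of all genes) and in 3 they lay below (18.2% of all genes).

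The count depended on single arrays, as did the background. Without IGF-1 array 2 only Kdelr2 was called higher, when the background also fell to 3.6%. Without control 2, control 3 or IGF-1 array 3, 4 genes were called higher, beside backgrounds of 4.02%, 4.89% and 4%. The fall of Tmed3 lost its call without any 1 array other than control 1. With each array scaled to its hybridization controls, bacterial and phage transcripts that are spiked in, 14 members were called higher and 0 lower, against a background of 18.2% called higher. That scaling moved the median of all genes to 0.21, and relative to it the members' median was 0.17, beside 0.15 in the main setting.

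**Figure D1:**
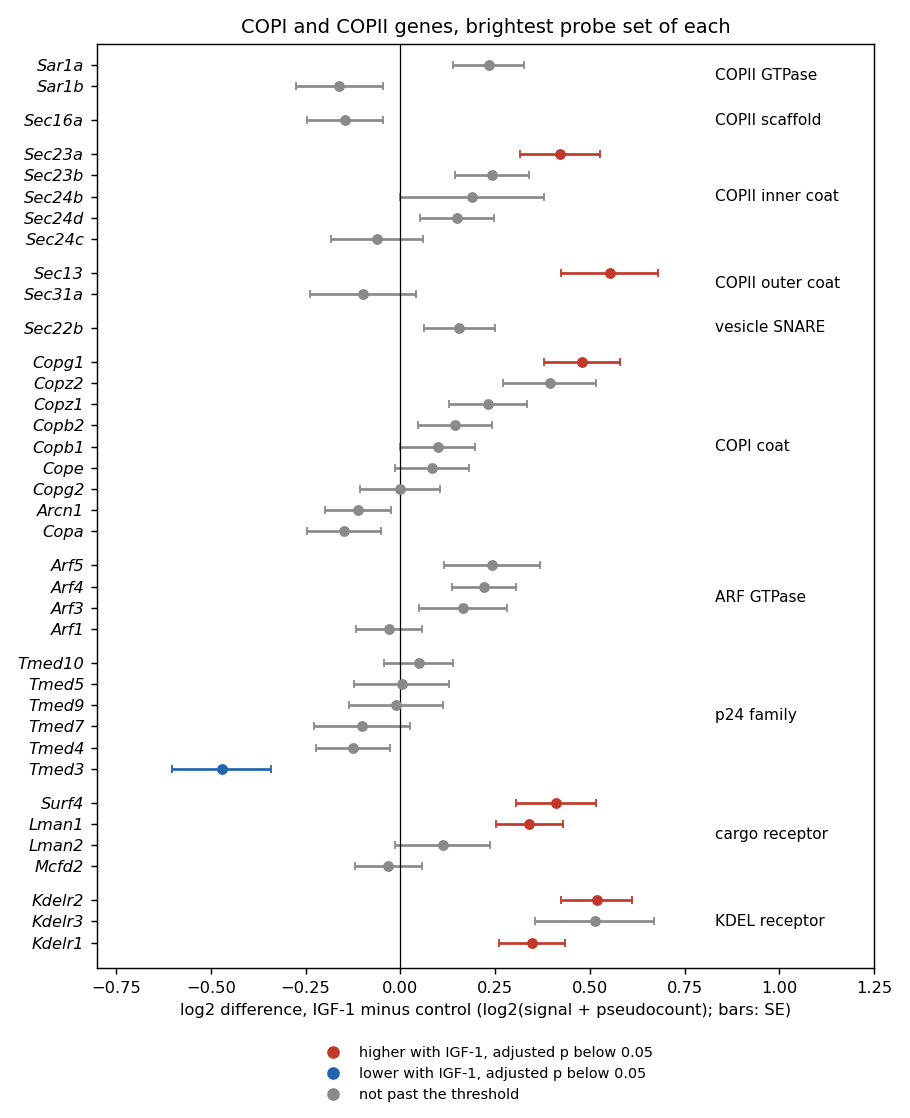
Log2 difference between IGF-1 and control arrays (x axis, log2(signal + pseudocount), bars are standard errors, 3 arrays per group) for the 37 COPI and COPII genes, grouped by role. The 7 genes called higher and the 1 called lower are coloured, the KDEL receptors are all to the right of 0, and Tmed3 lies furthest to the left.

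**Figure D2:**
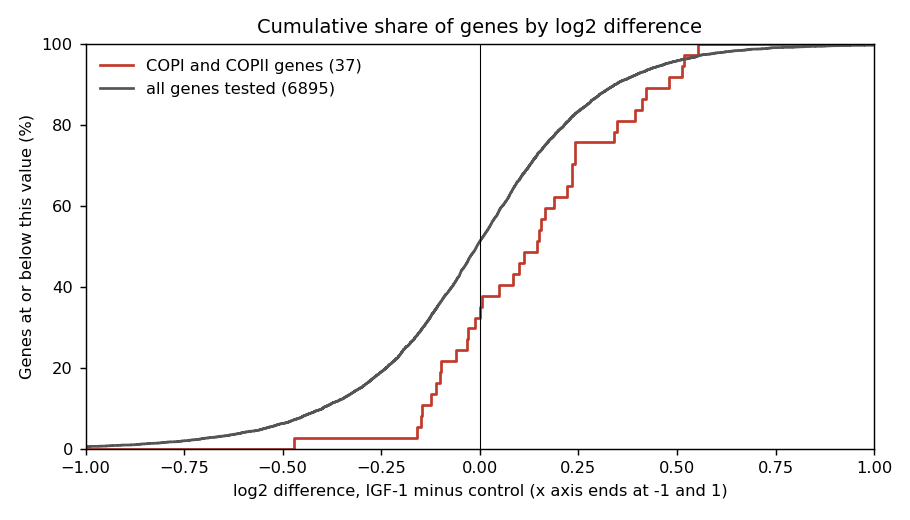
Cumulative share of genes (y axis, percent) by log2 difference between IGF-1 and control (x axis) for the 37 COPI and COPII genes and for all 6895 genes tested. The members' curve lies to the right through its middle, with a median of 0.14 beside -0.01, and meets the curve of all genes near its upper end, since no member exceeded 0.55.

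The KDEL receptors, which bind ER chaperones in the Golgi and return them in COPI vesicles, had the highest median of the roles, 0.51 over 3 genes. Kdelr2 had signals of 630.1, 702 and 623 in the 3 IGF-1 arrays, against 425, 466 and 459 in the 3 control arrays. Its means were 652 ± 43.6 with IGF-1 and 450.1 ± 21.8 in control (SD, n = 3 each), 1.43-fold apart on the scale with the pseudocount, a log2 difference of 0.52 ± 0.09 (SE, adjusted p = 0.0061). It kept its call in all 6 fits that left out 1 array (highest adjusted p 0.0322), and its other probe set was called too, at 0.62 ± 0.12.

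Kdelr1 had signals of 1196, 1138 and 1174 with IGF-1, against 866, 983 and 902 in control (0.35 ± 0.09, adjusted p = 0.025). The groups did not overlap, but the call was lost without any 1 array other than control 2 (highest adjusted p 0.0761) and without the intensity trend (adjusted p = 0.0521). Kdelr3, a dim and more restricted paralog, had signals of 91.3, 126 and 135 with IGF-1, against 67.2, 86 and 77.8 in control. Its groups were also separate, and its difference was close to that of Kdelr2, 0.51 ± 0.16, but it did not pass (adjusted p = 0.052). It passed with quantile normalization (adjusted p = 0.042) and with the scaling to hybridization controls (adjusted p = 0.0055). In 4 other settings it did not pass (highest adjusted p 0.132), nor without any 1 array other than IGF-1 array 1 (highest adjusted p 0.173).

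Among the other receptors for cargo, 2 of 4 rose. Lman1, also known as ERGIC-53, is a lectin that carries glycoproteins out of the ER with its partner Mcfd2. Its signals were 885, 934 and 914 with IGF-1, against 733.5, 666 and 753 in control (0.34 ± 0.09, adjusted p = 0.029). The arrays did not overlap, but its 2 other tested probe sets had smaller differences of 0.15 ± 0.08 and 0.16 ± 0.11 that did not pass. Without control 2 or any 1 IGF-1 array the call was lost (highest adjusted p 0.1). The call was also lost without the intensity trend (adjusted p = 0.0564) and with the mean of the probe sets (adjusted p = 0.0773). Mcfd2 had a difference of -0.03 ± 0.09 (adjusted p = 0.85, and 0.20 with the scaling to hybridization controls), at 387 ± 11.7 with IGF-1 and 396 ± 6.57 in control.

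Surf4, an ER exit receptor for soluble secreted proteins, had signals of 1054, 1222 and 1188 with IGF-1, against 968, 856 and 777 in control. The difference was 0.41 ± 0.11 (adjusted p = 0.027), and the lowest IGF-1 array stood above the highest control array. Of its 5 tested probe sets 2 were called, both higher, while its faintest probe set was at -0.25 ± 0.15 (adjusted p = 0.31), and the mean of the 5 did not pass (0.23, adjusted p = 0.16). Its call was also lost without control 2 or 3 or without IGF-1 array 2 or 3 (highest adjusted p 0.104), without the intensity trend (0.0521) and without the filter on dim probe sets (0.0663). Lman2, a lectin related to Lman1, had a difference of 0.11 ± 0.13 (adjusted p = 0.6).

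The p24 family (Tmed genes), small membrane proteins that cycle in COPI and COPII vesicles and sort GPI-anchored cargo, had a median of -0.06 over 6 genes, which became 0.18 under the scaling to hybridization controls, where the median of all genes was 0.21. Tmed3 had signals of 71.8, 71.9 and 63.2 with IGF-1, against 93.8, 97.1 and 115 in control. All 3 IGF-1 arrays were below the 3 control arrays, and the difference was -0.47 ± 0.13 (adjusted p = 0.037, and -0.27 with an adjusted p of 0.28 under the scaling to hybridization controls). The other 5 tested p24 genes lay between -0.13 for Tmed4 and 0.05 for Tmed10 and did not pass. Tmed9 differed between its probe sets, at -0.01 ± 0.12 for the brightest and 0.29 ± 0.10 for the other (adjusted p = 0.07).

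**Figure D3:**
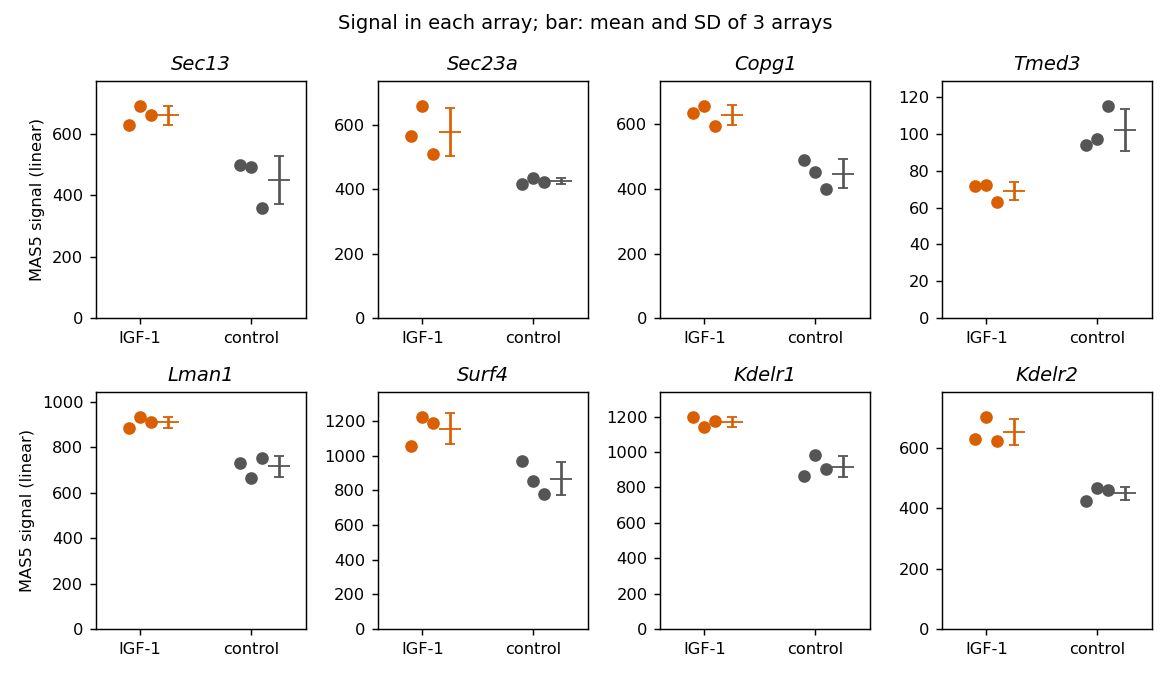
MAS5 signal (y axes, linear and starting at 0) in each of the 3 IGF-1 and 3 control arrays for the 8 COPI and COPII genes past the threshold, with the mean and SD beside the points. IGF-1 and control arrays do not overlap in any of the 8 panels, and the control arrays of Sec23a lie closest together, with an SD of 8.71.

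In the COPII coat 2 genes rose and 0 fell, and under the scaling to hybridization controls Sec23b (0.48, adjusted p = 0.029) and the GTPase Sar1a (0.47, adjusted p = 0.017) were called higher as well. Sec13, an outer coat protein that is also part of the nuclear pore, had signals of 629, 689 and 661 with IGF-1, against 498, 493 and 358 in control. This was the largest difference of the 37 genes in the main setting, 0.55 ± 0.13 (adjusted p = 0.018), with control 3 the lowest array. Without control 3 it was 0.40, and the call was lost without IGF-1 array 2 (adjusted p = 0.0663) and without the filter on dim probe sets (adjusted p = 0.0549). Its partner in the outer coat, Sec31a, had signals of 448 ± 56.1 with IGF-1 and 483 ± 91.4 in control (SD, n = 3 each), a difference of -0.10 ± 0.14 (adjusted p = 0.69), and 0.13 under the scaling to hybridization controls.

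Sec23a, an inner coat protein and the GTPase-activating protein of Sar1, had signals of 564, 657 and 509.8 with IGF-1, against 417, 434 and 423 in control (0.42 ± 0.11, adjusted p = 0.026). The control arrays were close together and all 3 IGF-1 arrays were above them, but without any 1 array other than IGF-1 array 3 the call was lost (highest adjusted p 0.0989), as it was without the filter on dim probe sets (adjusted p = 0.0557). Its paralog Sec23b had separate groups too, at 875 ± 56.5 with IGF-1 and 738 ± 65.3 in control (0.24 ± 0.10, adjusted p = 0.13). The cargo-binding Sec24 genes did not pass, with 0.19 ± 0.19 for Sec24b, 0.15 ± 0.10 for Sec24d and -0.06 ± 0.12 for Sec24c.

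The Sar1 paralogs had differences of opposite sign, neither past the threshold in the main setting. Sar1a had signals of 1108, 1094 and 1128 with IGF-1, against 845, 1027 and 963 in control, without overlap (0.23 ± 0.09, adjusted p = 0.12), and its other probe set had 0.24 ± 0.09. Sar1b, the paralog needed for export of chylomicrons from gut cells, had signals of 883, 716 and 779 with IGF-1, against 799.7, 1015 and 851 in control, with overlap (-0.16 ± 0.12, adjusted p = 0.39, and 0.08 under the scaling to hybridization controls). Sec16a, a scaffold of ER exit sites, had -0.15 ± 0.10 for its brightest probe set and 0.30 ± 0.12 for the other, neither past the threshold. Sec22b, a SNARE of these vesicles, had 0.16 ± 0.09.

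In coatomer, the COPI coat, 1 of 9 genes rose and 0 fell (3 and 0 under the scaling to hybridization controls, 2 and 0 with quantile normalization). Copg1, a gamma subunit, had signals of 635, 656 and 595 with IGF-1, against 489.7, 452 and 401.5 in control. The groups did not overlap, the difference was 0.48 ± 0.10 (adjusted p = 0.012), and the call was lost without IGF-1 array 2 alone (adjusted p = 0.0517). The alternative gamma subunit Copg2 had means of 157.1 ± 9.41 with IGF-1 and 157.2 ± 8.42 in control, a difference of -0.00 ± 0.11, which was 0.22 under the scaling to hybridization controls.

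Copz2, the minor zeta subunit, had signals of 94.8, 92.5 and 92.6 with IGF-1, against 71.1, 66.4 and 64.6 in control. The groups were separate and tight, and the difference was 0.39 ± 0.12 (adjusted p = 0.055). It passed with quantile normalization (adjusted p = 0.035), the scaling to hybridization controls (0.018), no intensity trend (0.03), array weights (0.049) and the mean of probe sets (0.038). In the other 5 settings where it was tested it did not pass (highest adjusted p 0.112). It also failed in all 6 fits that left out 1 array (adjusted p 0.0743 to 0.134). The major zeta subunit Copz1 had 0.23 ± 0.10 (adjusted p = 0.16, and adjusted p = 0.036 under the scaling to hybridization controls). The remaining 5 subunits lay between -0.15 for Copa and 0.14 for Copb2, all with overlapping groups. Coatomer works as a complex with fixed subunit numbers, and the median over its 9 genes was 0.10.

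Of 4 ARF GTPases 0 passed in the main setting, and 2 were called higher under the scaling to hybridization controls, Arf4 (0.46, adjusted p = 0.02) and Arf5 (0.46, adjusted p = 0.044). Arf1, which recruits coatomer to the Golgi, was the brightest gene of the list and had signals of 1737, 1789 and 1908 with IGF-1, against 1724, 1959 and 1868 in control (-0.03 ± 0.09, adjusted p = 0.85, and 0.21 under the scaling to hybridization controls). Arf4 had signals of 1381, 1228 and 1276 with IGF-1, against 1112, 1105 and 1108 in control, without overlap (0.22 ± 0.08, adjusted p = 0.11). Arf3 (0.17 ± 0.12) and Arf5 (0.24 ± 0.13) had overlapping groups.

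Paralogs were also set against each other within each array, as the difference of their log2 values, in 18 pairs of the Sar1, Sec23, Sec24, COPI subunit, ARF, Lman and KDEL receptor genes. Such a ratio shows an unequal change and is the same under any scaling of whole arrays, apart from the pseudocount. The ratio was higher in the 3 IGF-1 arrays than in the 3 control arrays, without overlap, for Copg1 over Copg2 (by 0.48), Sar1a over Sar1b (by 0.39), Arf5 over Arf1 (by 0.27), Arf4 over Arf1 (by 0.25) and Kdelr2 over Kdelr1 (by 0.17). An exact two-sided permutation test of 3 against 3 arrays cannot go below p = 0.1, the value of these 5 pairs, and adjusted over the 18 pairs p was 0.36. Pairs that share a gene, such as Arf5 over Arf1 and Arf4 over Arf1, are not independent. The share of such separate ratios over other gene pairs was not computed. For Sec23a over Sec23b the ratio differed by 0.18 with overlap (exact permutation p = 0.4, adjusted 0.6).

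Probe sets of a gene did not always move together. Of the 37 genes, 17 had over 1 tested probe set, and of the 24 tested probe sets that were not the brightest, 15 had the sign of the brightest and 9 the opposite sign. The 9 belonged to 8 genes, of which Surf4 was the only one called. Only 2 of the 24, those of Kdelr2 and Surf4, were called themselves, both higher, beside 6.82% of all 11313 probe sets called higher and 8.28% lower. The 7 member probe sets below the signal filter were not tested.

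**Figure D4:**
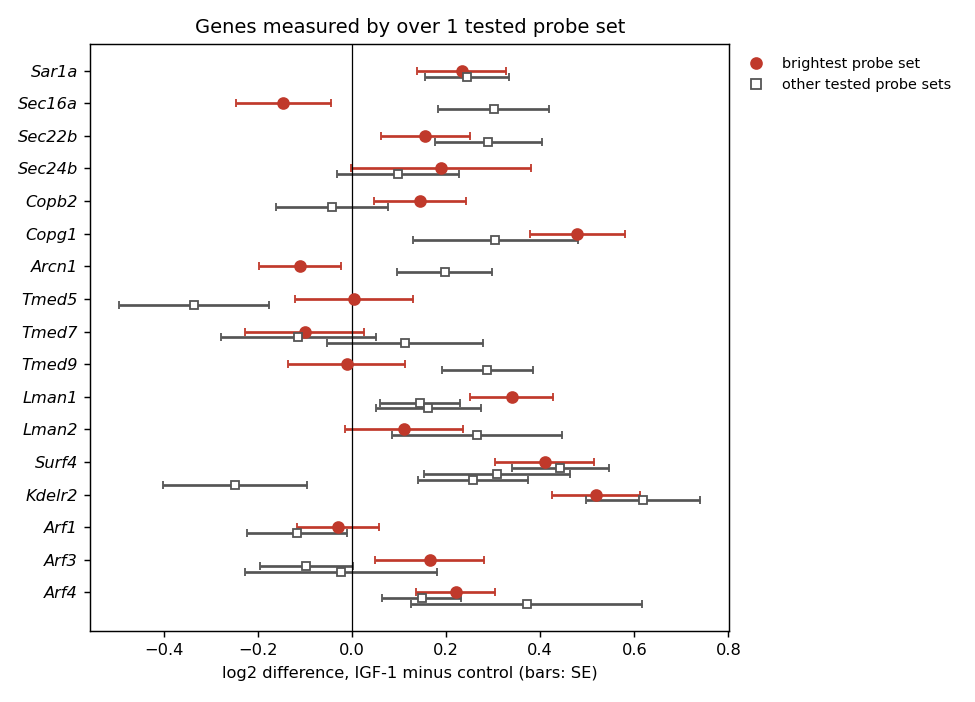
Log2 difference between IGF-1 and control (x axis, bars are standard errors) for the brightest and the other tested probe sets of the 17 COPI and COPII genes with over 1. The 2 probe sets of Kdelr2 and of Sar1a lie close together, whereas those of Sec16a, Arcn1 and Tmed9 lie on opposite sides of 0 and 1 of the 5 of Surf4 lies left of 0.

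Promoter windows were read to see whether the genes share elements known to act in the secretory pathway, since KDEL receptors and coat genes are known targets of the unfolded protein response. RefSeq windows of assembly GRCm38.p6, from 250 bases before to 50 after each transcript start, were found for 35 of the 40 listed genes (40 windows). Both strands were searched for 4 motifs, the ERSE (CCAAT, then 9 bases of any kind, then CCACG) and ERSE-II (ATTGG, then 1 base of any kind, then CCACG), bound by ATF6 with NF-Y, the UPRE core (TGACGTG, bound by XBP1, ATF6 and CREB3-family factors) and an SRE (TCACNCCAC, bound by SREBP). The motifs can share bases, since the ERSE and ERSE-II both end in CCACG and the UPRE core on the opposite strand starts with CACG. The UPRE core was in 7 of the 40 member windows (17.5%), beside 2.01% of all 32851 windows. Both windows of Arf1, whose starts lie close together, hold the same copy, so the 7 windows hold 6 sites in 6 genes. Windows of other genes that overlap in this way were not merged either. Member windows were richer in G and C, at a median of 62.5% beside 52.7%, and the part of base composition in this share was not tested. The 6 genes with it were Sec24d, Copb1, Copb2, Arf1, Kdelr3 and Sec23a, of which only Sec23a was called, with its match starting 7 bases into the transcript. The ERSE and ERSE-II were in 0 member windows (0.119% and 0.0365% of all windows), and the SRE was in that of Sec24d alone (1.24% of all windows). The 100 bases before the start follow for Sec24d, Copb1 and Kdelr3, whose core lies wholly before their single matched start, and for the called genes Sec13 and Copg1, which have none. That of Arf1, which lies before only 1 of its starts, is not printed. Capitals mark the core (CACGTCA is the core on the opposite strand).
Sec24d, chr3:123267396-123267495, plus strand: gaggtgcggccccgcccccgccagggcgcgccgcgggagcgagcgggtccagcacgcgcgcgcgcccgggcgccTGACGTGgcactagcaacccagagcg
Copb1, chr7:114254681-114254780, minus strand: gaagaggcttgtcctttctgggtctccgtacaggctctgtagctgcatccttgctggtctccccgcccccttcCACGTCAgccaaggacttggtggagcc
Kdelr3, chr15:79516308-79516407, plus strand: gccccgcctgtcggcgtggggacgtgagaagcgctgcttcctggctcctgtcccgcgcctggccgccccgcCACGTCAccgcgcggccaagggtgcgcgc
Sec13, chr6:113740682-113740781, minus strand: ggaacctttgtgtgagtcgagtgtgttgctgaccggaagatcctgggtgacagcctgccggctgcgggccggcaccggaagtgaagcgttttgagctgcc
Copg1, chr6:87887840-87887939, plus strand: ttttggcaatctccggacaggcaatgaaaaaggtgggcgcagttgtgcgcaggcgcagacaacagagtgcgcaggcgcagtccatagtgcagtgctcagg
In the 3 genes with the core it starts 26, 27 and 29 bases before the transcript start, in the order Sec24d, Copb1 and Kdelr3.

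Genes that work beside the coats were taken as 5 further lists of 120 genes, of which 93 were tested. Among these, 9 rose, 4 fell and 80 did not pass (20 rose and 1 fell under the scaling to hybridization controls), and their median was 0.04. The share that rose was 9.68%, near the background of 7.05%. Under the scaling to hybridization controls the background was 18.2% of all tested genes called higher, which also applies to the counts of single lists below. Of 14 tested ER exit and COPII accessory genes, 2 rose and 0 fell (5 and 0 under the scaling to hybridization controls), and both changes were larger than that of any coat gene. Cnih1, a cornichon cargo receptor of COPII vesicles, had signals of 677, 644 and 661 with IGF-1, against 372, 329.8 and 364 in control (0.87 ± 0.09, adjusted p = 0.00037). Ergic1, which cycles between the ER and the Golgi, had 1061, 922 and 929.9 with IGF-1, against 555, 489 and 605 in control (0.81 ± 0.11, adjusted p = 0.0013). In both genes the lowest IGF-1 array stood well above the highest control array.

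Of 40 tested tethers, Rab GTPases and SNAREs, 5 rose and 2 fell (6 and 0 under the scaling to hybridization controls), with a median of 0.02. Trappc1, of the TRAPP tethering complex, rose by 0.48 ± 0.11, the SNARE Ykt6 by 0.44 ± 0.12, and Nsf, the ATPase that takes SNARE complexes apart, by 0.42 ± 0.11. The other probe set of Ykt6 was called higher too (0.53 ± 0.11), whereas that of Nsf did not pass (0.08 ± 0.18, adjusted p = 0.8). Napg, a SNAP cofactor of Nsf, fell (-0.44 ± 0.12, adjusted p = 0.036), while its other probe set was at 0.06 ± 0.13. Of 9 tested ARF regulators and other ARFs 0 rose and 1 fell (1 and 0 under the scaling to hybridization controls). It was Arfgef1, an ARF exchange factor of the trans-Golgi, at 443 ± 26.6 with IGF-1 and 702 ± 70.6 in control (-0.64 ± 0.10, adjusted p = 0.0037, and adjusted p = 0.051 under the scaling to hybridization controls). The brightest probe sets of Gbf1 (0.24 ± 0.12) and Arf6 (0.06 ± 0.09) did not pass. Their second brightest were called higher, at 0.56 ± 0.11 (adjusted p = 0.0094) and 0.44 ± 0.12 (adjusted p = 0.0296). A further probe set of Arf6, at -0.16 ± 0.13, did not pass. Of 22 tested genes of the ER translocon and signal peptidase 2 rose and 0 fell (7 and 0 under that scaling, 1 and 1 with quantile normalization), Ssr2 of the translocon-associated complex (0.53 ± 0.11) and Srp68 of the signal recognition particle (0.32 ± 0.09).

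Among 8 tested transcription factors of the secretory pathway and their activators, 0 rose and 1 fell (1 and 1 under that scaling). Creb3l2, known from mouse cartilage cells as an activator of Sec23a, had signals of 348, 265 and 314 with IGF-1, against 649, 453 and 507 in control, without overlap. Its difference was -0.76 ± 0.14 (adjusted p = 0.0074), and it was called lower under the scaling to hybridization controls too (-0.53, adjusted p = 0.037). Its other probe set was called lower as well (-0.50 ± 0.11, adjusted p = 0.018). Xbp1 did not pass by its brightest probe set (-0.195 ± 0.086, adjusted p = 0.16, and 0.04 under the scaling to hybridization controls). A dimmer probe set of Xbp1 was called lower (-0.63 ± 0.10, adjusted p = 0.0028). Its other tested probe sets, at -0.24 ± 0.08 and 0.09 ± 0.14, did not pass.

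**Figure D5:**
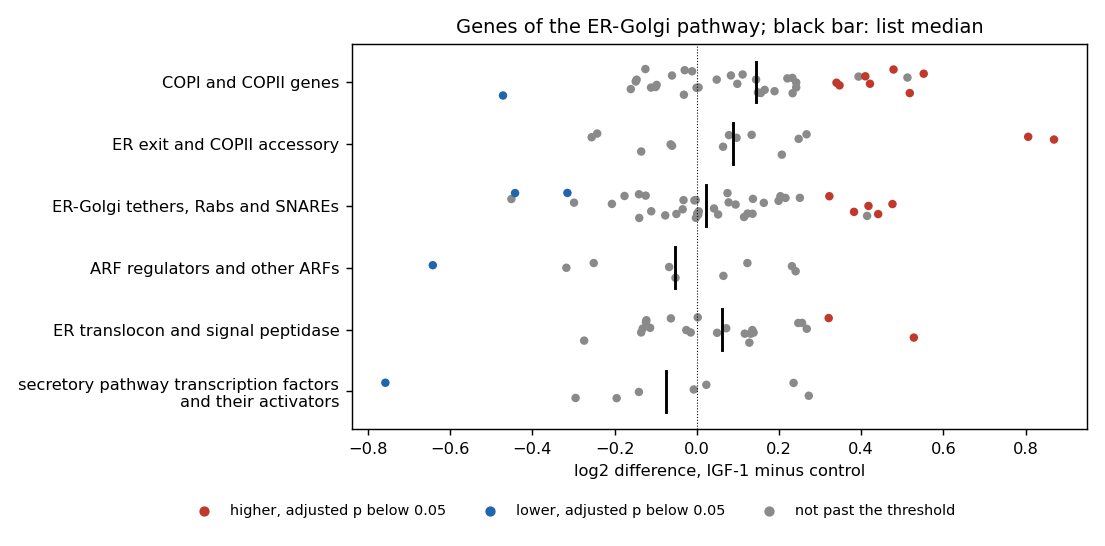
Log2 difference between IGF-1 and control (x axis) of each tested gene, 1 point per gene, for the 37 COPI and COPII genes and the 5 further lists of the ER-Golgi pathway, with list medians as black bars. Cnih1 and Ergic1 are the points furthest to the right (0.87 and 0.81), and Creb3l2 and Arfgef1 the points furthest to the left (-0.76 and -0.64).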

How the data were processed

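Mouse myeloma cells with or without IGF-1 were profiled on 6 one-colour arrays, 3 per group. Per the submitters' processing notes, which name MAS5 and GCOS, the authors deposited an intensity (signal, linear scale) for each probe set. Neither software versions nor a target for array scaling is stated by those notes. After trimming 2% at each end the mean signal was 150.1 on every array, so differences are relative to equal overall signal. Of 22690 probe sets, 64 controls were left out, 20380 had 1 gene symbol, 691 several and 1555 were not listed in the platform annotation. The gene IDs of the 37 members matched the RefSeq table of GRCm38.p6, with 0 symbols changed. Signals were tested as log2(signal + 15.57), the 25th percentile of all signals, for the 11313 probe sets (6895 genes) with a mean above 53.61, the median. This scale understates changes of dim genes. The fit used limma 3.58.1 (lmFit, eBayes with an intensity trend, two-sided) in R 4.3.3. Data simulated for this comparison held 11313 probe sets, with 200 changed. In them the test called 1.6% of log2 changes of 0.25, 36.4% of those of 0.5 and 98.8% of those of 1. Of its calls, 7.03% fell on probe sets without a change. In the real data more probe sets were called, 772 higher and 937 lower, so these shares need not hold there. Not passing therefore does not show that a gene was unchanged. Precision is limited by having 3 arrays per group.

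The members and lists were chosen with earlier results of these data known, so no list was tested as a whole. Values are given by array for members past the threshold and for chosen members of the other roles, and for further lists for up to 4 called genes each. Labels and file named no batch. Alternatives covered the pseudocount, filter, normalization, scaling, trend, array weights, probe set choice, replicate block and each array left out. Python 3.11.15 with pandas 2.3.3 and matplotlib 3.10.9 was used for tables and plots.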

Additional observations from a re-analysis of the deposited data

How the results depend on the processing

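The median of the members was positive under all 17 alternatives. Without a filter on dim probe sets, when 22626 probe sets were tested, 4 members were called higher and 0 lower, 4 and 2 genes of the further lists, and 448 and 498 of all probe sets, beside 772 and 937. Sec13, Sec23a, Surf4 and Tmed3 lost their calls there. Without the intensity trend 5 members were called higher, beside 5.74% of all tested genes, Kdelr1, Lman1 and Surf4 being lost and Copz2 added. Under the scaling to hybridization controls 14 members were called higher and 0 lower (median 0.38), 20 and 1 genes of the further lists, and 2023 and 287 of all probe sets. With the filter at the 70th percentile and without _s_at, _x_at and _a_at probe sets 0 members were called lower, but Tmed3 was not tested there, so these settings say nothing about it. Without those probe sets 474 of all were called higher. Leaving out 1 array gave 1 to 5 members called higher and 0 to 1 lower (median 0.0904 to 0.157), 3 to 7 and 2 to 4 genes of the further lists, and 406 to 659 and 491 to 792 of all probe sets. With the replicate number as a block 8 members were called higher and 0 lower, Kdelr3 being added (adjusted p = 0.032) and Tmed3 lost (adjusted p = 0.056). In that fit 6.93% of all tested genes were called higher. Deviations of arrays of the same number correlated at 0.12, -0.03 and 0.13, and those of unlike numbers at -0.15 to 0.03. Arrays 1 and 3 correlated best with their own number, and array 2 did not. Hybridization controls were brightest in array 2 of both groups (mean log2 signal 7.39 with IGF-1 and 7.66 in control). Whether the numbers pair the samples was not settled, and the main fit used no block.

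Genes that changed sign were not called in the main setting. Under the scaling to hybridization controls they were Copa (0.0893), Mcfd2 (0.20), Arf1 (0.21), Sec16a (0.0837), Tmed7 (0.13), Sar1b (0.0758), Tmed9 (0.23), Tmed4 (0.10), Copg2 (0.22), Arcn1 (0.13), Sec24c (0.17) and Sec31a (0.13). That scaling moved the median of all genes to 0.21, and 10 of these 12 stayed below that median. With the mean of probe sets they were Tmed5 (-0.17), Sec16a (0.0773), Tmed9 (0.14) and Arcn1 (0.0427), without the probe sets above Arf3 (-0.0241), Sec16a (0.30) and Arcn1 (0.20), with quantile normalization Copg2 (0.0374), and with array weights Tmed5 (-0.0362). With 1 array left out Tmed5 (-0.11 to 0.0682), Copg2 (-0.0388 to 0.0399), Arf1 (-0.079 to 0.0123), Tmed9 (-0.12 to 0.14), Sec24c (-0.16 to 0.0289) and Sec31a (-0.18 to 0.0484) did so. The cause of the sign changes under the other settings was not tested.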
